A study of Mus musculus with 4 samples.

Results

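Integrins are the cell-surface receptors that tie a cell to its extracellular matrix, and 10 of their subunit genes were followed here across cultured mouse mammary tumour cells. The genes were taken by symbol as subunits that serve collagen (Itga2), laminins (Itga3, Itga6, Itgb4), fibronectin (Itga5) and the RGD motif or latent TGF-beta (Itgav, Itgb3, Itgb5, Itgb6), together with Itgb1, the partner shared by most of the alpha subunits. All 10 were found among the 23361 genes of the deposited table, and all 10 passed the filter on low counts. RNA was sequenced in 4 libraries of a mammary tumour line from the Chaos3 mouse model (C3HeB/FeJ strain), which is known for a mutant allele of the replication helicase gene Mcm4. The High group held 2 libraries, 1 of each of the clones AB-C1 and AB-C2, in which a lentiviral vector was used to overexpress Arid1a, a DNA-binding subunit of the SWI/SNF chromatin remodelling complex. The Low group held 2 libraries of the parental tumour line, 23116 MT, labelled as low in Arid1a. All 4 libraries therefore share the Chaos3 tumour background, each add-back line is 1 clone, and the sources used here do not name the vector's promoter. Which High library is which clone is not stated in the table, so the numbers 1 and 2 only name libraries.

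Each integrin is a pair of 1 alpha and 1 beta subunit, and the pair sets which matrix protein the cell can hold. In the mammary gland, laminin-binding integrins sit on the basal surface of the epithelium, and the pair of Itga6 and Itgb4 products anchors hemidesmosomes to keratin filaments. The product of Itgav pairs with several beta chains. Its pair with the Itgb6 product is known mainly from epithelia, where it binds the latent form of TGF-beta and releases the active cytokine, while its pair with the Itgb3 product is known from endothelium, osteoclasts and invasive tumour cells.

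The libraries held 16523077 and 24307251 fragments in the High group and 13889858 and 28110812 in the Low group. Arid1a itself, on chromosome 4, was at 6.16 and 7.22 FPKM (fragments per kilobase of transcript, relative to depth) in the High libraries and at 10.2 and 11.7 FPKM in the Low libraries. The gene named in the labels was thus counted lower, not higher, where the label is High, although the difference did not pass (log2 fold change -0.71, edgeR adjusted p = 0.165), and whether vector transcripts were counted is not known. Directions below are therefore given for the libraries labelled High. High libraries varied more, with a biological coefficient of variation of 42.8%, against 17.3% for the Low pair. Of the epithelial marker genes Epcam, Cdh1, Krt8, Krt18, Krt19 and Cldn4, all 6 were detected, with a summed level of 462 and 1378 FPKM in the High libraries and 973 and 687 FPKM in the Low libraries. Most of that sum was Krt8 and Krt18, whose groups overlapped, as did those of Krt19. Epcam was at 60.5 and 128 FPKM in the High libraries and 49.5 and 42 FPKM in the Low libraries, and Cdh1 at 61.5 and 90.6 FPKM in the High libraries and 30.8 and 34.4 FPKM in the Low libraries. With Cldn4 (32.6 and 84.7 FPKM in the High libraries, 27.9 and 23.6 FPKM in the Low libraries), these 3 were above the Low range in both High libraries without an edgeR call. The 6 basal and myoepithelial markers summed to 870 and 1801 FPKM in the High libraries and 1218 and 902 FPKM in the Low libraries. Among them Acta2, smooth muscle actin, fell, at 9.45 and 3.60 FPKM in the High libraries, against 553 and 483 FPKM in the Low libraries (log2 -6.31, edgeR adjusted p = 0.00976). With High library 1 left out this became -7.16, and the adjusted p was 0.376 or 0.318 without Low library 1 or Low library 2. The other 5 basal markers had log2 fold changes above 0 without a call. For Krt5, Myh11 and Mylk among them the groups overlapped, at 0 to 40 fragments in any library. Krt14, a basal keratin, was at 859 and 1792 FPKM in the High libraries and 663 and 418 FPKM in the Low libraries, and Trp63 at 1.42 and 5.49 FPKM in the High libraries and 0.614 and 0.590 FPKM in the Low libraries. Fibroblast markers, with Lum at 0, summed to 199 and 19.6 FPKM in the High libraries and 938 and 830 FPKM in the Low libraries, but did not move together. Of the 4 tested, 2 were above 0 and 2 below, none called by edgeR. Col1a1 and Col3a1 were lower in both High libraries (Col3a1 at 31.1 and 0.375 FPKM in the High libraries, 365 and 340 FPKM in the Low libraries). Dcn was higher in both (117 and 11.5 FPKM in the High libraries, 2.48 and 3.40 FPKM in the Low libraries), and Pdgfra overlapped (36.3 and 4.12 FPKM in the High libraries, 12.4 and 15.2 FPKM in the Low libraries). The 6 endothelial markers summed to at most 0.226 FPKM in any library, with Emcn at 0. Of 6 platelet and megakaryocyte markers, Gp9 was at 0 and the sum was 6.46 and 119 FPKM in the High libraries and 5.48 and 6.08 FPKM in the Low libraries, nearly all of the 119 FPKM being the chemokine Ppbp. Leukocyte markers summed to 7.22 and 7.96 FPKM in the High libraries and 3.31 and 3.48 FPKM in the Low libraries, with Cd3e at 0. Of these marker genes edgeR called Acta2 alone, while DESeq2 called 1 epithelial, 3 basal, 2 fibroblast and 1 leukocyte gene. Over all tested genes, edgeR called 2.47% and DESeq2 8.75%. The part of these markers in the results below was not tested, and in bulk RNA fewer cells of a type and less RNA per cell cannot be told apart.

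The main question was how each integrin subunit differed between the libraries labelled High and those labelled Low. Itgb6 and Itga6 rose, Itga5 and Itgb3 fell, and Itga2, Itga3, Itgav, Itgb1, Itgb4 and Itgb5 did not pass the test. A gene was called when the adjusted p of edgeR's quasi-likelihood test was under 0.05 over the 12987 genes tested. Thus 4 of 10 subunits were called, where 2.47% of all tested genes were, 2 of them higher (background 1.14%) and 2 lower (background 1.33%). The 10 subunits were chosen with earlier results of these data known, so these shares are a description and no test of the set. The groups did not overlap for 7 of the 10 subunits, against 51.0% of all tested genes. The median log2 fold change of the 10 was 0.54, beside 0.03 over all tested genes. Every edgeR call in the series, these 4 included, was lost when 1 of the Low libraries was left out. With Low library 1 or Low library 2 left out, the log2 fold changes were 2.50 or 2.39 for Itgb6 and 1.65 or 2.01 for Itga6. They were -2.12 or -2.40 for Itga5 and -4.06 or -4.04 for Itgb3. In the fits without a High library the spread comes from the Low pair alone. The remaining High library is assumed to vary as that pair does. P-values and calls of those fits, given below, are therefore not support for a difference between the groups. In the fits without a Low library the spread comes from the High pair alone. Other shares of all genes called, against which counts below can be read, were 8.75% with DESeq2, 4.88% without the filter on low counts, 2.47% with limma-voom and 2.59% with limma on log2(FPKM + 1). The labels do not say that the Low libraries were separate cultures, so the p-values measure the spread between these libraries only.

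**Figure D1:**
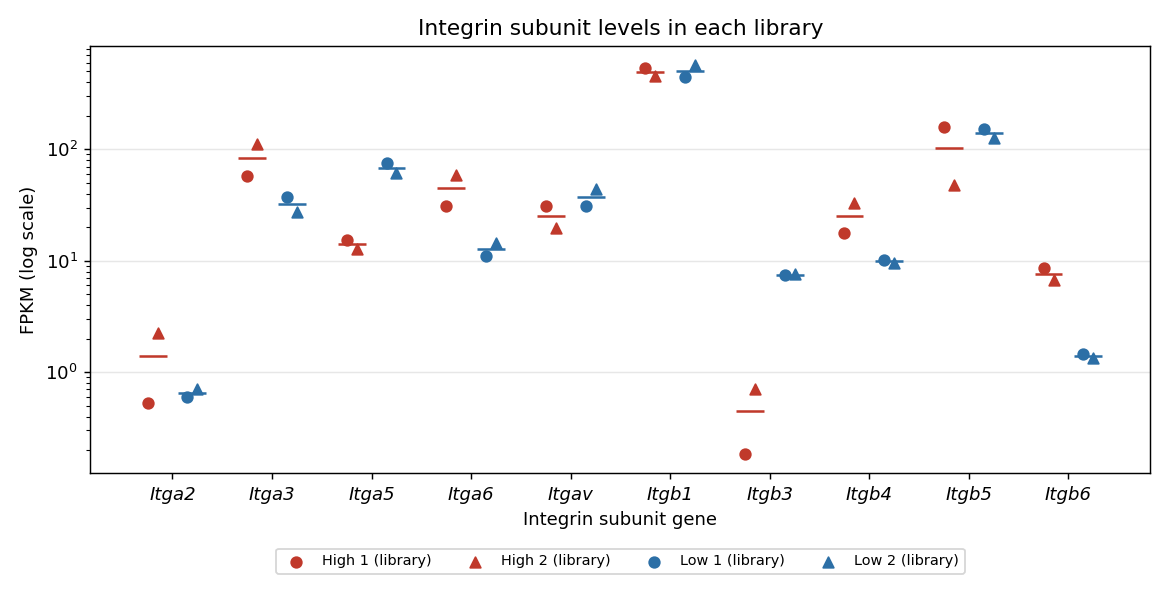
FPKM of the 10 integrin subunits in each library, on a log axis, with High libraries in red and Low libraries in blue. Circles are library 1 and triangles library 2 of each group, and short lines are group means. Itgb6 and Itga6 lie higher and Itga5 and Itgb3 lower in both High libraries, while Itgb1 overlaps between the groups.

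**Figure D2:**
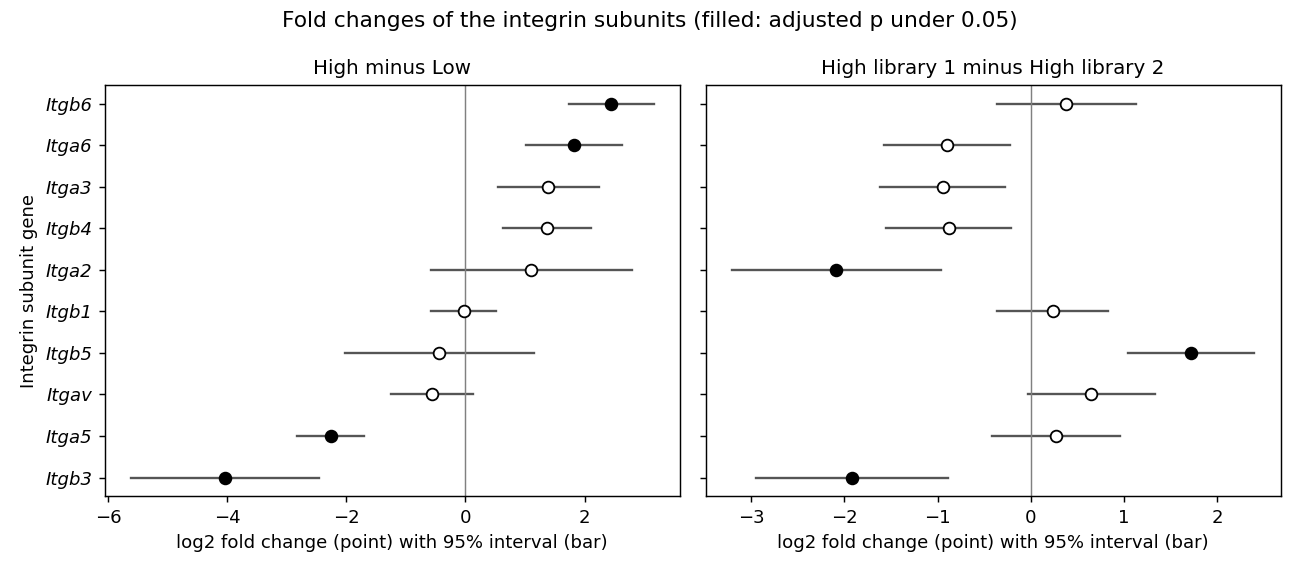
Log2 fold changes from edgeR with 95% intervals, for High minus Low on the left and High library 1 minus High library 2 on the right. Filled points have an adjusted p under 0.05: Itgb6, Itga6, Itga5 and Itgb3 on the left, and Itga2, Itgb3 and Itgb5 on the right. On the right the spread comes from the Low duplicates alone.

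Among the beta chains that pair with the Itgav product, Itgb6 rose and Itgb3 fell. Itgb6 (ENSMUSG00000026971.15, minus strand of chromosome 2, 60598292 to 60722643, mm10) had 8.67 and 6.67 FPKM in the High libraries, against 1.46 and 1.35 FPKM in the Low libraries. Both High libraries stood well above both Low libraries, and the values within each group were close together. The fold change was 5.47 (log2 2.45 ± 0.30, SE, edgeR adjusted p = 0.00976). Behind these levels were 691 and 761 fragments in the High libraries and 92 and 172 in the Low libraries. Without Low library 1 or Low library 2 the log2 fold change was 2.50 or 2.39, and the adjusted p was 0.477 or 0.508.

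Itgb3 (ENSMUSG00000020689.4, plus strand of chromosome 11, 104608000 to 104670476, mm10) had 0.186 and 0.706 FPKM in the High libraries, against 7.46 and 7.59 FPKM in the Low libraries. The groups did not overlap, and the High libraries themselves differed more than the Low libraries did. The level was 16.4-fold lower in the libraries labelled High (log2 -4.04 ± 0.63, SE, edgeR adjusted p = 0.0424). The High values rest on 18 and 98 fragments and the Low values on 570 and 1164. Leaving out High library 2 gave a log2 fold change of -5.33 and leaving out High library 1 gave -3.40, and with a pseudocount of 1 on the FPKM scale it was -2.58. Without Low library 1 or Low library 2 the log2 fold change was -4.06 or -4.04, and the adjusted p was 0.601 or 0.647.

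Side by side, the ratio of Itgb6 to Itgb3 on the FPKM scale was 46.7 and 9.44 in the High libraries, against 0.196 and 0.178 in the Low libraries. Itgb6 was thus the more abundant of this pair in both High libraries, and Itgb3 in both Low libraries. The most abundant of the 3 partners was nevertheless Itgb5, whose product pairs with that of Itgav to bind vitronectin. Itgb5 (chromosome 16, 33829665 to 33949338, mm10) had 157 and 47.8 FPKM in the High libraries, against 154 and 126 FPKM in the Low libraries. High library 1 lay beside the Low libraries and High library 2 below them, so the groups overlapped, and the difference did not pass (log2 -0.44, 95% interval -2.03 to 1.15, edgeR adjusted p = 0.761). Leaving out High library 1 gave -1.54 (adjusted p = 1.56e-05, with the Low pair's spread alone), and leaving out High library 2 gave 0.17 (0.743). Of the summed FPKM of Itgb3, Itgb5 and Itgb6, Itgb6 made up 5.22% and 12.1% in the High libraries and 0.90% and 0.996% in the Low libraries. Itgb3 made up 0.112% and 1.28% in the High libraries and 4.58% and 5.61% in the Low libraries.

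Itgav, the shared alpha chain of these receptors (chromosome 2, 83724397 to 83806916, mm10), had 30.7 and 19.7 FPKM in the High libraries, against 31.2 and 43.8 FPKM in the Low libraries. Both High libraries were below both Low libraries, the nearest pair being almost level. The log2 fold change was -0.56 with a 95% interval of -1.25 to 0.13, and it did not pass (edgeR adjusted p = 0.375), and without High library 1 it was -0.92 (adjusted p = 0.0224, with the Low pair's spread alone). The order of the partners thus differed between the groups without a called change in the alpha chain itself.

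**Figure D3:**
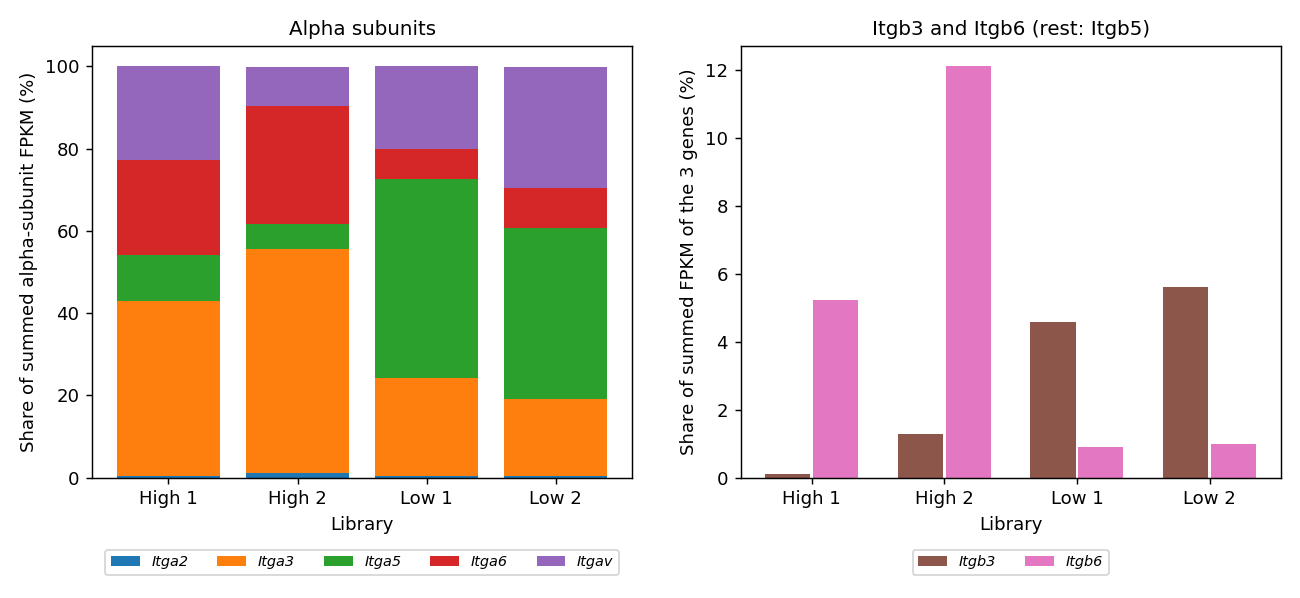
Shares of summed FPKM in each library. On the left are the 5 alpha subunits, in which Itga5 makes up 11.4% and 6.29% in the High libraries and 48.3% and 41.7% in the Low libraries. On the right are Itgb3 and Itgb6 as shares of the sum of Itgb3, Itgb5 and Itgb6. Itgb5, not drawn, makes up the rest.

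Among the alpha chains that pair with the Itgb1 product, the fibronectin receptor subunit Itga5 fell. Itga5 (ENSMUSG00000000555.8, minus strand of chromosome 15, 103344286 to 103366763, mm10) had 15.4 and 12.9 FPKM in the High libraries, against 74.9 and 61.9 FPKM in the Low libraries. The groups lay far apart, and the libraries within each group were close. The level was 4.8-fold lower in the libraries labelled High (log2 -2.26 ± 0.24, SE, edgeR adjusted p = 0.00622). Leaving out Low library 1 or Low library 2 gave log2 fold changes of -2.12 and -2.40 with an adjusted p of 0.398 and 0.318. Of the fibroblast markers given above, Col1a1 and Col3a1 were also lower in both High libraries while Dcn was higher, and their part in the values of Itga5 and Itgb3 was not tested.

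Promoter sequences are shown for Itgb6 and Itga5, the called subunits with an entry in the RefSeq promoter table (GRCm38.p6, the same assembly as mm10). They moved in opposite directions, and each window runs from 250 bases before to 50 bases after an annotated start. Each is given 5′ to 3′ on the gene's own strand, which is the minus strand for both genes. Capitals mark matches, on either strand, to any of 4 motifs, and no matches overlap in these windows. The motifs are TGANTCA, named for the AP-1 factors, then CAGGTG, an E-box, then GGAATG, named for the TEAD factors, and finally GGGCGG, a GC box. On the opposite strand the E-box reads as CACCTG, and the GC box as CCGCCC. The Itgb6 windows are chr2:60722554-60722853 (upstream start) and chr2:60673644-60673943 (downstream start), and the Itga5 window is chr15:103366742-103367041.
Itgb6 upstream start: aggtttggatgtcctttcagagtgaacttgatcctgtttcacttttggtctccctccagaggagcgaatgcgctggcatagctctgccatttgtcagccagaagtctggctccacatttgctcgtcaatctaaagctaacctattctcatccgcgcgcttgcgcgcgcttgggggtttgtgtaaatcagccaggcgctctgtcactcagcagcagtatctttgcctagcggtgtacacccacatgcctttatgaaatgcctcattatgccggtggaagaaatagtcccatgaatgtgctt
Itgb6 downstream start: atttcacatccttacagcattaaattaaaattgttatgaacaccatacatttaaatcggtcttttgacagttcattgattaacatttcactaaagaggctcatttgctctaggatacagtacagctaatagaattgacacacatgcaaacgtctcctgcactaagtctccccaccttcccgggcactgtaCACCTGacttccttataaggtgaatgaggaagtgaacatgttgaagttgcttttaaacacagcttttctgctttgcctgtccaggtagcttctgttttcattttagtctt
Itga5: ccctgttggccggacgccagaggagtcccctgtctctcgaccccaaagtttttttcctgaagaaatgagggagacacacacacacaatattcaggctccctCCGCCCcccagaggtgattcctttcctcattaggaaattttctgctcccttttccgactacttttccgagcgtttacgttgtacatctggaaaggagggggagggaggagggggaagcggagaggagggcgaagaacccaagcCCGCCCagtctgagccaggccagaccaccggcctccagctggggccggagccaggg

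The upstream Itgb6 window held none of the 4 motifs, and the downstream one held a single CAGGTG match, a sequence found in 20.2% of all 32851 promoter windows. The Itga5 window held 2 matches to GGGCGG, found in 35.7% of windows. Matches are a description of these letters and not of binding. The GC content was 50.3% and 38.3% in the Itgb6 windows and 58.7% in the Itga5 window, with a median of 52.7% over all windows. The deposited counts are per gene, so the Itgb6 starts cannot be told apart in them. The table also held windows for Itga2, Itga3, Itgav, Itgb1 and Itgb5, 7 of the 10 subunits in all, and Itga6, Itgb3 and Itgb4 were not matched. TGANTCA, found in 7.81% of windows, occurred once among them, at the downstream of the Itga3 starts. GGAATG, found in 14.7%, occurred once, at Itgb1.

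Among the laminin receptor subunits, Itga6 rose, and Itga3 and Itgb4 were above the Low range in both High libraries but did not pass. Itga6 (ENSMUSG00000027111.15, plus strand of chromosome 2, 71745616 to 71858416, mm10) had 31.2 and 58.4 FPKM in the High libraries, against 11.1 and 14.4 FPKM in the Low libraries. The groups did not overlap, and High library 2 was the highest of the 4. The fold change was 3.54 (log2 1.82 ± 0.34, SE, edgeR adjusted p = 0.0464). This call was close to the threshold: limma-voom gave an adjusted p of 0.0529 and limma on log2(FPKM + 1) one of 0.0581, and without Low library 1 or Low library 2 it was 0.698 or 0.722, at log2 fold changes of 1.65 and 2.01. GENCODE places other transcripts on both strands within Itga6, none of them a row of the deposited table, and how strand was used in counting is not known.

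Itga3 (chromosome 11, 95044474 to 95076801, mm10), whose product pairs with that of Itgb1 to bind laminins, had 57.6 and 111 FPKM in the High libraries, against 37.2 and 27.6 FPKM in the Low libraries. Itgb4 (chromosome 11, 115974709 to 116008412, mm10), the hemidesmosomal beta chain, had 17.9 and 32.9 FPKM in the High libraries, against 10.2 and 9.57 FPKM in the Low libraries. For both genes the groups did not overlap and High library 2 was the highest of the 4, as for Itga6. The log2 fold changes were 1.39 ± 0.36 for Itga3 and 1.37 ± 0.32 for Itgb4 (SE, edgeR adjusted p = 0.110 and 0.0776). Both passed with DESeq2 (adjusted p = 0.00444 and 0.00293) and without the filter on low counts (0.0226 and 0.00641). Leaving out High library 1 gave 1.79 for Itga3 and 1.75 for Itgb4 (adjusted p = 7.23e-09 and 2.48e-08). Leaving out High library 2 gave 0.83 for Itga3 and 0.86 for Itgb4 (0.0272 and 0.0165). These p-values rest on the Low pair's spread alone. With the replicate number as a block, an arbitrary pairing, edgeR's adjusted p was 0.0488 for Itgb4 and 0.0786 for Itga3. Without Low library 1 or Low library 2 neither passed, at 0.698 and 0.850 for Itga3 and 0.698 and 0.832 for Itgb4. The epithelial markers Epcam, Cdh1 and Cldn4, given above, were likewise above the Low range in both High libraries and highest in High library 2. The other epithelial markers, Krt8, Krt18 and Krt19, were also highest in High library 2, but their groups overlapped. Krt8 was at 138 FPKM in High library 1, against 401 and 274 FPKM in the Low libraries. The part of these markers in the values of Itga3, Itga6 and Itgb4 was not tested.

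The ratio of Itga6 to Itgb4 on the FPKM scale was 1.75 and 1.78 in the High libraries and 1.1 and 1.5 in the Low libraries. Itga6 thus exceeded its hemidesmosomal partner in every library. The ratio of Itga3 to Itga5 was 3.73 and 8.64 in the High libraries, against 0.496 and 0.446 in the Low libraries, so the more abundant of this laminin and fibronectin pair differed between the groups. Of the summed alpha-chain FPKM, Itga3 made up 42.5% and 54.4% in the High libraries and 24.0% and 18.6% in the Low libraries. Itga6 made up 23.1% and 28.6% in the High libraries and 7.19% and 9.67% in the Low libraries.

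The shared beta chain and Itga2, the collagen receptor subunit among the 10, did not pass the test. Itgb1 (chromosome 8, 128685654 to 128733200, mm10) was the most abundant of the 10 in every library, at 533 and 455 FPKM in the High libraries and 449 and 568 FPKM in the Low libraries. The groups overlapped, and the log2 fold change was -0.03 with a 95% interval of -0.58 to 0.52 (edgeR adjusted p = 0.964). The sign changed without High library 2 (0.07) and without Low library 2 (0.14). Its level was 3.94 and 2.23 times the sum of the 5 alpha chains in the High libraries and 2.90 and 3.83 times that sum in the Low libraries. In none of the 4 libraries did the summed alpha chains reach the level of Itgb1.

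Itga2 (chromosome 13, 114833081 to 114932100, mm10), the alpha chain of the collagen receptor also carried by platelets, was the lowest of the 5 alpha chains followed. It had 0.530 and 2.26 FPKM in the High libraries, against 0.60 and 0.706 FPKM in the Low libraries. High library 2 alone was high, and High library 1 was below both Low libraries. The log2 fold change was 1.11 with a 95% interval of -0.58 to 2.80 (edgeR adjusted p = 0.473). Leaving out High library 1 gave 1.79 (adjusted p = 3.49e-04, with the Low pair's spread alone), and leaving out High library 2 gave -0.30 (0.784). These levels rest on 37 and 226 fragments in the High libraries and 33 and 78 in the Low libraries.

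Ordered by mean FPKM, the High group ran from Itgb1 through Itgb5, Itga3, Itga6, Itgb4, Itgav, Itga5, Itgb6 and Itga2 to Itgb3. From Itgb5 down to Itgav the 2-library ranges of neighbours overlapped, as did those of Itga2 and Itgb3, and the other neighbours were apart. In the Low group the order was Itgb1, Itgb5, Itga5, Itgav, Itga3, Itga6, Itgb4, Itgb3, Itgb6 and Itga2, with only the ranges of Itgav and Itga3 overlapping. Itga5 was thus the leading alpha chain in the Low group and Itga3 in the High group.

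The High libraries come from separate clones, and the next comparison asked which subunits differed between these libraries. Itga2 and Itgb3 were lower and Itgb5 was higher in High library 1 than in High library 2, and 7 subunits did not pass. That made 3 of 10, against a background of 10.9% of tested genes, with 1 higher (background 6.47%) and 2 lower (background 4.46%). Itgb5 was 3.30-fold higher in High library 1 (log2 1.72 ± 0.34, SE, edgeR adjusted p = 2e-05). Itga2 fell by 2.09 on the log2 scale in High library 1 relative to High library 2, and Itgb3 by 1.92 (edgeR adjusted p = 0.00428 for both). The Itga2 call was lost with DESeq2 (adjusted p = 0.0875) and that of Itgb3 with limma-voom (0.0621).

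The laminin receptor subunits followed here, Itga3, Itga6 and Itgb4, were each lower in High library 1 without passing. This direction did not extend to every integrin alpha chain outside that set. Itga7, described below, was higher in High library 1 (log2 1.39). The log2 differences were -0.95 for Itga3, -0.90 for Itga6 and -0.88 for Itgb4, and edgeR's adjusted p was 0.0530, 0.0741 and 0.0789. Itga3 did pass with DESeq2 (0.0440) and limma-voom (0.0371). The other subunits that did not pass had 95% intervals that include 0. These were -0.03 to 1.33 for Itgav (log2 0.65) and -0.42 to 0.95 for Itga5 (0.27). For Itgb6 (0.38) the interval was -0.36 to 1.13, and for Itgb1 (0.23) it was -0.36 to 0.83. A difference between these libraries was thus not detectable for these subunits. The spread in this fit comes from the Low duplicates, with 1 residual degree of freedom, and each clone is assumed to vary as they do.

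The genes whose pattern over the 4 libraries lay nearest to each called subunit were named by distance on centred log2(CPM + 1) values, among 9310 other genes with a mean of at least 10 CPM (fragment counts made comparable between libraries). For Itgb6 these were Foxq1 (distance 0.17), Dapk2 (0.19) and Clip4 (0.22). For Itga6 they were Arap2 (0.14), Pmaip1 (0.27) and Unc13b (0.28). For Itga5 they were Dlg4 (0.14), Col15a1 (0.18) and Bmp1 (0.19). For Itgb3 they were Crabp1 (0.26), Stmn4 (0.29) and Gng11 (0.35). As an example of the likeness, Bmp1, a metalloproteinase that processes procollagens, was at 193 and 169 CPM in the High libraries and 832 and 686 CPM in the Low libraries. Near Itgb6, Dapk2, a death-associated protein kinase, was at 28.2 and 24.0 CPM in the High libraries and 5.58 and 4.79 CPM in the Low libraries. Nearness over 4 libraries is a description only.

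The remaining integrin subunits gave 1 call. Of 16, 10 passed the filter on low counts, 1 fell, 0 rose and 9 did not pass, with a median log2 fold change of -0.20 over the tested ones. The faller was Itga9, whose product pairs with that of Itgb1 and binds tenascin-C and osteopontin. It had 0.0254 and 0.0243 FPKM in the High libraries, against 2.07 and 2.14 FPKM in the Low libraries, or 3 and 4 fragments against 193 and 376. It was nearly absent from both High libraries and 80.1-fold lower by the fit (edgeR adjusted p = 0.0021), and without Low library 1 or Low library 2 the adjusted p was 0.376 or 0.318, at log2 fold changes of -6.30 and -6.35. With either High library left out there were 5 calls in this list, where 16.3% (without High library 1) and 18.6% (without High library 2) of all genes were called. With a pseudocount of 1 on the FPKM scale the log2 fold change of Itga9 was -1.60, against -6.32 in edgeR. Itga4, Itgad and Itgal were listed at 0 in every library, and Itga8, Itgam and Itgax did not pass the filter. The highest of the list by mean FPKM were Itga7, Itga11, Itgb2 and Itgb7. For Itga7, Itga11 and Itgb2 the groups overlapped. Itga7 was at 14.3 and 5.47 FPKM in the High libraries and 11.6 and 9.44 FPKM in the Low libraries. Itga11 was at 6.58 and 0.331 FPKM in the High libraries and 4.47 and 4.15 FPKM in the Low libraries. Itgb2 was at 0.736 and 4.43 FPKM in the High libraries and 2.17 and 1.46 FPKM in the Low libraries. Itgb7 was at 4.24 and 2.34 FPKM in the High libraries and 0.915 and 0.706 FPKM in the Low libraries. Its difference did not pass (edgeR adjusted p = 0.0982). On the log2 scale, High library 1 minus High library 2 was 1.39 for Itga7, 4.31 for Itga11, -2.58 for Itgb2 and 0.86 for Itgb7. Itgb8, another partner of Itgav that binds latent TGF-beta, was at 1.21 and 0.944 FPKM in the High libraries and 1.51 and 1.91 FPKM in the Low libraries (adjusted p = 0.533). Itga2b, the platelet partner of Itgb3, was at 1.96 and 1.17 FPKM in the High libraries and 0.564 and 0.404 FPKM in the Low libraries (adjusted p = 0.186).

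Inside the cell, integrin tails are held by talins, kindlins and tensins. Counts in this and the following lists stand beside 2.47% of all tested genes called by edgeR (1.14% higher, 1.33% lower), 8.75% by DESeq2, and 16.3% or 18.6% without High library 1 or High library 2. Of 30 activators and focal adhesion proteins, all were tested, 2 fell, 0 rose and 28 did not pass, with a median log2 fold change of -0.37. The fallers were Tln2, a talin that switches integrins on (4.70 and 3.09 FPKM in the High libraries, 16.9 and 19.5 FPKM in the Low libraries, edgeR adjusted p = 0.0101), and Tns1, a tensin of fibrillar adhesions (3.37 and 1.64 FPKM in the High libraries, 14.5 and 16.2 FPKM in the Low libraries, adjusted p = 0.0229). Both were lower in each High library than in either Low library. DESeq2 called 5 of the 30, 2 higher and 3 lower, and leaving out High library 1 or High library 2 gave 11 or 7 calls. Without High library 1 the log2 fold change of Tns1 was -3.21, against -2.61 with it. Of 9 hemidesmosome partners and tetraspanins, 8 were tested and 0 passed with edgeR. At an unadjusted p under 0.05 there were 3, and DESeq2 called 2, limma-voom and limma on FPKM 0, and edgeR 3 when either High library was left out. Cd9 and Cd81, the tetraspanins highest in FPKM, had adjusted p of 0.272 and 0.117, and Cd9 stood at 382 and 601 FPKM in the High libraries and 336 and 300 FPKM in the Low libraries.

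The matrix ligands of these receptors were counted in the same cells. Of 14 laminin and basement membrane genes, 12 were tested, 1 rose, 1 fell and 10 did not pass, with a median of 0.30. The laminin gamma chain Lamc3 rose (2.54 and 2.80 FPKM in the High libraries, 0.255 and 0.298 FPKM in the Low libraries, edgeR adjusted p = 0.00976), and the alpha chain Lama4, a chain of vessel and mesenchymal laminins, fell (0.118 and 0.371 FPKM in the High libraries, 1.85 and 2.46 FPKM in the Low libraries, adjusted p = 0.0481). The Lama4 call was lost with limma on log2(FPKM + 0.1) (adjusted p = 0.0543), and leaving out High library 2 gave a log2 fold change of -4.18 and leaving out High library 1 gave -2.53, against -3.10 with both. DESeq2 called 7 of the 12, 2 higher and 5 lower, and leaving out High library 1 or High library 2 gave 10 or 6 calls. Of 11 collagen chains, 0 passed with edgeR. At an unadjusted p under 0.05 there were 3, DESeq2, limma-voom and limma on FPKM each called 2 lower ones, and leaving out High library 1 or High library 2 gave 8 or 5 calls. Their median was -0.87. Col1a1, the highest of them by mean FPKM and also one of the fibroblast markers, was at 13.9 and 3.53 FPKM in the High libraries, against 557 and 471 FPKM in the Low libraries (adjusted p = 0.0717).

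Among 14 RGD ligands and related matricellular proteins, 13 were tested, 1 rose, 2 fell and 10 did not pass, with a median of -0.45. Npnt, nephronectin, rose (18.8 and 20.2 FPKM in the High libraries, 8.24 and 8.79 FPKM in the Low libraries, edgeR adjusted p = 0.0421). Fbn1, the microfibril protein fibrillin-1, fell (2.27 and 0.904 FPKM in the High libraries, 18.9 and 27.6 FPKM in the Low libraries, adjusted p = 0.0316). Ctgf, a matricellular protein, fell as well (124 and 88.0 FPKM in the High libraries, 391 and 363 FPKM in the Low libraries, adjusted p = 0.0148). Each of these 3 genes had groups that did not overlap. The Npnt call was lost with limma on log2(FPKM + 1) (adjusted p = 0.0545) and in the fit that blocks on replicate number (0.0600). Without High library 1 the log2 fold change of Fbn1 was -4.67, against -3.87 with it. DESeq2 called 5 of the 13, and leaving out High library 1 or High library 2 gave 10 or 7 calls. Fibronectin itself, Fn1, the ligand of the Itga5 receptor, was at 190 and 72.5 FPKM in the High libraries, against 316 and 429 FPKM in the Low libraries, and did not pass (adjusted p = 0.205).

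Of 11 genes of latent TGF-beta, its binding proteins and its receptors, 1 fell, 0 rose and 10 did not pass, with a median of 0.01. The faller was the ligand Tgfb1, at 16.2 and 13.3 FPKM in the High libraries, against 43.6 and 31.8 FPKM in the Low libraries (edgeR adjusted p = 0.0488). That call was close to the threshold, and limma-voom called 0 of the 11 genes (4 at an unadjusted p under 0.05), while DESeq2 called 3. With High library 1 or High library 2 left out there were 6 or 4 calls. Tgfbr2, the type II receptor, was at 180 and 78.1 FPKM in the High libraries, against 28.7 and 30.6 FPKM in the Low libraries, and did not pass (adjusted p = 0.0653). Without either Low library edgeR called 0 genes in any of these partner lists, with 0 to 6 a list at an unadjusted p under 0.05 (Tln2, Tns1, Lamc3, Lama4, Npnt, Fbn1, Ctgf and Tgfb1 had adjusted p from 0.427 to 0.802 there).

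**Figure D4:**
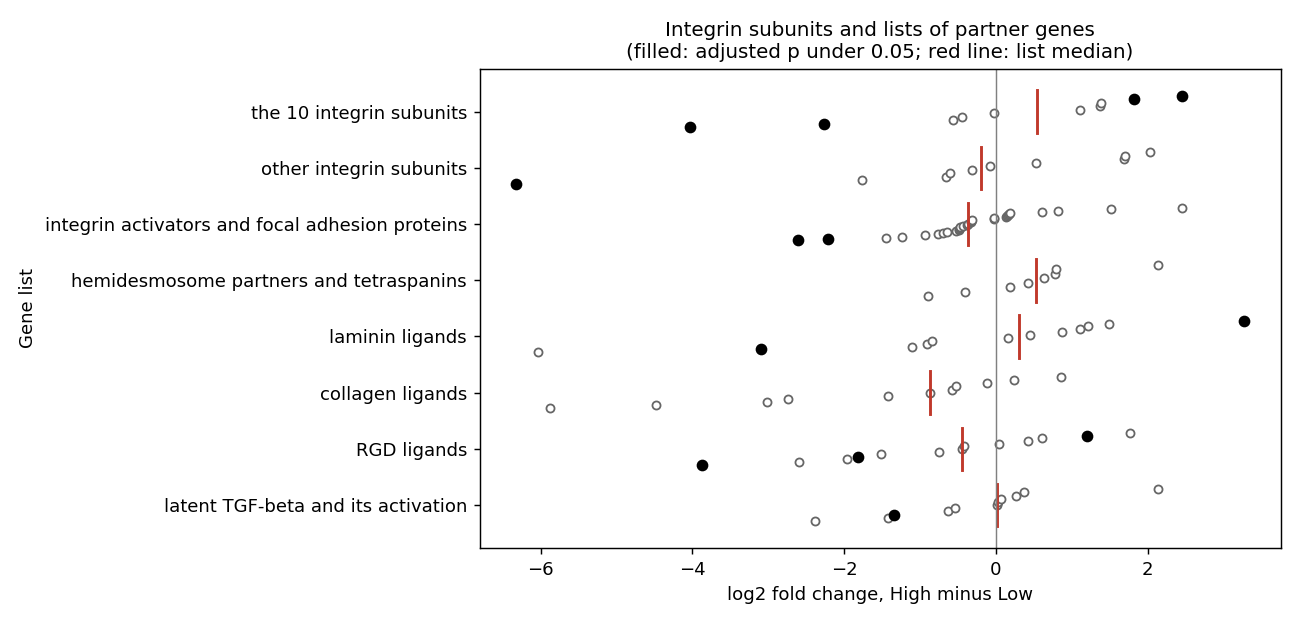
Log2 fold changes, High minus Low, of the 10 integrin subunits and of each list of partner genes. Each point is a tested gene, filled where the edgeR adjusted p was under 0.05, and the red line is the list median. The collagen list has the lowest median at -0.87, and the 10 subunits spread to both sides of 0.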

How the data were processed

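RNA was measured in 4 libraries, 2 labelled High and 2 labelled Low in Arid1a. Libraries were made from 500 ng of total RNA with a directional kit, per the labels' protocols. The tools named upstream are cutadapt 1.5, TopHat2 2.0.13 and Cuffdiff 2.2.1 with mm10, per the submitters' processing notes. The sources used here give neither the gene annotation nor the strand setting.

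Per the file headers, the deposited table holds estimated counts of fragments per gene and library, a scaled signal (fragments multiplied by a factor of 0.7291 to 1.4646 for each library, by the authors) and the authors' FPKM, relative to depth and transcript length after that scaling. Of the estimated counts, 99.18% were whole within 1e-06, and all were rounded before testing. Per-sample columns left unused numbered 0. A failed status marked 11 genes, of which 0 were integrin subunits.

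Tests used edgeR 4.0.16 (limma 3.58.1, DESeq2 1.42.0, R 4.3.3): quasi-likelihood, two-sided, TMM normalisation, robust, smallest count 10, Benjamini-Hochberg adjustment over 12987 genes at 0.05. These hold at least 99.9% of each library's fragments. The group fit had 2 residual degrees of freedom, and the fit with each High library alone had 1. Standard errors were taken from the fold change and the F statistic. With 2 libraries a group, the smallest p of an exact permutation test is 0.333, and no such test was run. The fits were tested on simulated data. The simulated spread was near that of the fit with each High library alone (biological coefficient of variation 17.2%). It was below that of the group fit (32.2%), so the simulation does not show how the group fit performs on these libraries. CPM values are TMM-normalised. Positions come from GENCODE M21 (GRCm38, the same assembly as mm10) and promoters from RefSeq (GRCm38.p6). One list symbol, Tns2, was matched as Tenc1 through RefSeq synonyms.

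Within-pair counts differed by more than sampling noise (chi-square over its degrees of freedom, 130 for High and 34.0 for Low), and no libraries were merged. Deviations of same-numbered libraries correlated at -0.21 across genes. The labels pair no libraries and the table's library numbers were taken as names only, so the replicate block is an arbitrary pairing.

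The integrin subunits and gene lists were chosen with earlier results of these data known. Named genes were the 10 subunits, every list gene that passed, otherwise up to 4 highest-expressed members of a list by mean FPKM, and the 3 genes nearest to each called subunit. Itgb8 and Itga2b fall outside this rule and were chosen after their values were seen. Also outside it are the cell type markers Cldn4, Krt19, Myh11 and Mylk, and genes named as at 0 or as not passing the filter. Alternatives were RLE size factors, no filter, DESeq2, limma-voom, limma on log2(FPKM + 1) and log2(FPKM + 0.1), the replicate block and leaving out each library.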

Additional observations from a re-analysis of the deposited data

Results flagged for a closer look

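Of the subunits, 3 differed between the High libraries by the fit that treats each High library alone, with edgeR's adjusted p under 0.05. The log2 difference of High library 1 minus High library 2 was -2.09 for Itga2, -1.92 for Itgb3 and 1.72 for Itgb5. Relative to the Low libraries, Itga2 was higher in High library 2 and not in High library 1, Itgb5 was lower in High library 2 and not in High library 1, and Itgb3 was lower in both.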

How the results depend on the processing

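Between the groups, edgeR called 321 genes (148 higher, 173 lower), against 1136 with DESeq2, 814 with no filter on low counts and 0 to 2475 with a library left out (0 without either Low library, where 970 genes without Low library 1 and 800 without Low library 2 had an unadjusted p below 0.05). Of the 10 subunits 4 were called, against 3 to 6 under the other tools and settings and 0 to 9 with a library left out. With all 4 libraries kept, Itga5, Itgb3 and Itgb6 stayed past the threshold in the same direction under each alternative named above, the arbitrary replicate block among them. Itga6 did so except with limma-voom and limma on log2(FPKM + 1). None of the 4 was called with a Low library left out. Fits without a High library rest on the Low pair's spread alone and are not counted here. The Itga2 log2 fold change ran from -0.30 to 1.79 with a library left out, Itgb1 from -0.19 to 0.14 and Itgb5 from -1.54 to 0.17, each changing sign. Itgb1 turned positive without High library 2 (0.07) or Low library 2 (0.14), and Itga2 (-0.30) and Itgb5 (0.17) changed sign without High library 2. The cause was not tested. With the replicate number as a block, 469 genes were called, and Itgb4 was gained (adjusted p = 0.0488) while the calls of the other subunits did not change. A crossed pairing, chosen after seeing the data, called 94 genes. Between the High libraries edgeR called 1419 genes, against 1024 to 1525 under the alternatives. Leaving out a Low library there leaves no residual degrees of freedom, so no test was run. Fragments limit Itgb3 in the High libraries (18 and 98) and Itga2 (33 to 226) most.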
